A study of Mus musculus with 6 samples.

Results

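The genes described here are 81 receptor genes of mouse regulatory T (Treg) cells, out of 22939 genes in the deposited table. Of these, 80 were taken by their symbols: the numbered Gpr genes, the S1P receptor genes S1pr2 to S1pr5, the prostaglandin E2 receptor genes Ptger1 to Ptger4, the lysophosphatidic acid receptor genes Lpar1 to Lpar6, the P2ry nucleotide receptor genes, amine receptor genes such as those for histamine, and the leukotriene B4 receptor genes. The remaining gene, Gipr, was chosen by its measured fold change between the groups compared below, so its values are a description and carry no test. All 81 are called receptor genes here. However, Gpr89, Gpr107, Gpr108, Gpr137, Gpr155 and Gpr180 encode organelle membrane proteins that are not classical receptors. RNA was sequenced from 6 libraries of 2 groups, 3 of control Treg cells (ctrl-Treg) and 3 of Treg cells induced in the presence of sorafenib (Sora-Treg). Sorafenib (Sora) is an inhibitor of several kinases used against liver cancer. Both groups were naive CD4+ T cells from spleen and lymph nodes of Foxp3-GFP mice, in which GFP is knocked into the Foxp3 locus, and both were stimulated in culture with antibodies to CD3 and CD28, TGF-β1 and antibodies that neutralize IFN-γ and IL-4. Sora was present from the start of the culture in 1 group only, and GFP+ cells of both groups were sorted for RNA. The concentration of Sora used for these libraries, the age of the mice and whether each library came from its own mouse or culture are not given in the sources used here, so p-values measure the spread between these libraries, which may be technical.

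G protein-coupled receptors cross the membrane 7 times, bind a ligand outside the cell and act on a heterotrimeric G protein inside. Receptors that act through Gs raise cyclic AMP, those that act through Gi lower it, and those that act through Gq, G12 or G13 signal through phospholipase C or the small GTPase RhoA. In T cells, cyclic AMP restrains activation through the antigen receptor, while receptors for lysophospholipids, oxysterols and leukotrienes steer migration and positioning. Gipr encodes the receptor for GIP, a hormone released by the gut after a meal, which acts through Gs and is best known for raising insulin secretion from pancreatic beta cells.

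Libraries held 30727686 to 37717324 counts, and a floor of 3 counts stood at 0.0762 to 0.0989 CPM (the count relative to the library total, scaled between libraries by TMM, the trimmed mean of M-values). The Treg markers Foxp3, Il2ra, Ctla4, Ikzf2 and Tnfrsf18 were high in every library. Foxp3 had 10584, 9259 and 8058 counts in ctrl-Treg and 8423, 8555 and 9644 in Sora-Treg. Not all were alike between the groups. Log2 fold changes (Sora-Treg over ctrl-Treg, ± SE) were 0.07 ± 0.03 for Foxp3, 0.97 ± 0.02 for Il2ra and 1.53 ± 0.03 for Ctla4. They were 0.02 ± 0.04 for Ikzf2 and 0.81 ± 0.03 for Tnfrsf18. The T cell markers Cd3e, Cd4 and Cd28 summed to 1004 to 1023 CPM in ctrl-Treg and 1255 to 1278 in Sora-Treg. The 7 myeloid markers summed to 93.5, 93.0 and 24.9 CPM in ctrl-Treg and 22.3, 42.9 and 20.8 in Sora-Treg. The highest of them was Lyz2 in all libraries but Sora-Treg 1 and 3, where Cd68 was higher. The 4 B cell markers summed to 1.53 to 2.39 CPM in ctrl-Treg and 0.251 to 0.365 in Sora-Treg, and neutrophil, mast cell and natural killer cell markers were at 0 to 4 counts in every library. CD8 T cell markers summed to 12.6 to 15.1 CPM and platelet markers to 6.12 to 8.89 CPM over all 6 libraries. Of the CD8 markers, Cd8a was lower in Sora-Treg at -0.71 ± 0.22 (log2 ± SE), while Cd8b1 was at 0.04 ± 0.10. The platelet sum was nearly all Itga2b, at 193 to 331 counts. Ppbp had at most 1 count, and Pf4 had 14, 4 and 2 counts in ctrl-Treg and 2, 2 and 1 in Sora-Treg. ctrl-Treg 1 and 2 thus carried more myeloid marker RNA than the other 4 libraries, and values without both are given for the genes described below whose call this changed.

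Of the 81 receptor genes, 45 passed the filter on low counts and were tested, and 36 did not. The 81 genes took 0.106% to 0.108% of all counts in ctrl-Treg and 0.153% to 0.155% in Sora-Treg. Both shares include Gipr, which was chosen by its fold change. Gipr made up 0.290% to 0.368% of the receptor counts in ctrl-Treg and 16.8% to 17.4% in Sora-Treg. Beside Gipr, 44 tested genes remained, and edgeR's quasi-likelihood test was run on all 13463 genes that passed the filter. Called genes (DEGs) had an adjusted p below 0.05 and a more than 2-fold difference, and by that rule 8 of the 44 were higher in Sora-Treg, where 6.30% of all tested genes were higher. By the same rule 3 of the 44 were lower, against 4.97% of all tested genes. Of the 44, Gpr141 passed the filter only through Sora-Treg, and P2ry1, Gpr161 and Gpr52 only through ctrl-Treg, each through the group where it was higher, so their differences are given as a description. Over the other 40 genes, 7 were DEGs higher and 1 was a DEG lower. Without the limit on fold, 22 of the 44 were higher, against 29.7% of all tested genes, 8 were lower, against 29.9%, and 14 did not pass. Either way, 11 were DEGs (11.3% of all tested genes) and 30 passed at any fold (59.6% of all tested genes). With Gipr counted, 23 genes were higher and 8 lower, and scaling by library totals alone gave 17 higher and 11 lower. The shares above are for TMM scaling, and library totals alone also moved all tested genes. Over all tested genes they gave 720 DEGs higher and 845 lower, against 848 and 669 with TMM. These are genes beyond 2-fold. The share of all tested genes at any fold was not counted for library totals, so the 17 and 11 have no such share beside them. Values did not overlap between the groups for 22 genes with Sora-Treg above (31.8% of all tested genes) and 8 with Sora-Treg below (32.0%), or 30 in all (63.7%). The median log2 fold change (Sora-Treg over ctrl-Treg) was 0.21 over the 44 genes and -0.0035 over all tested genes. With library totals alone these medians were 0.09 and -0.12. A lower level in bulk RNA can mean fewer cells that express a gene or less RNA per cell, which cannot be told apart here.

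**Figure D1:**
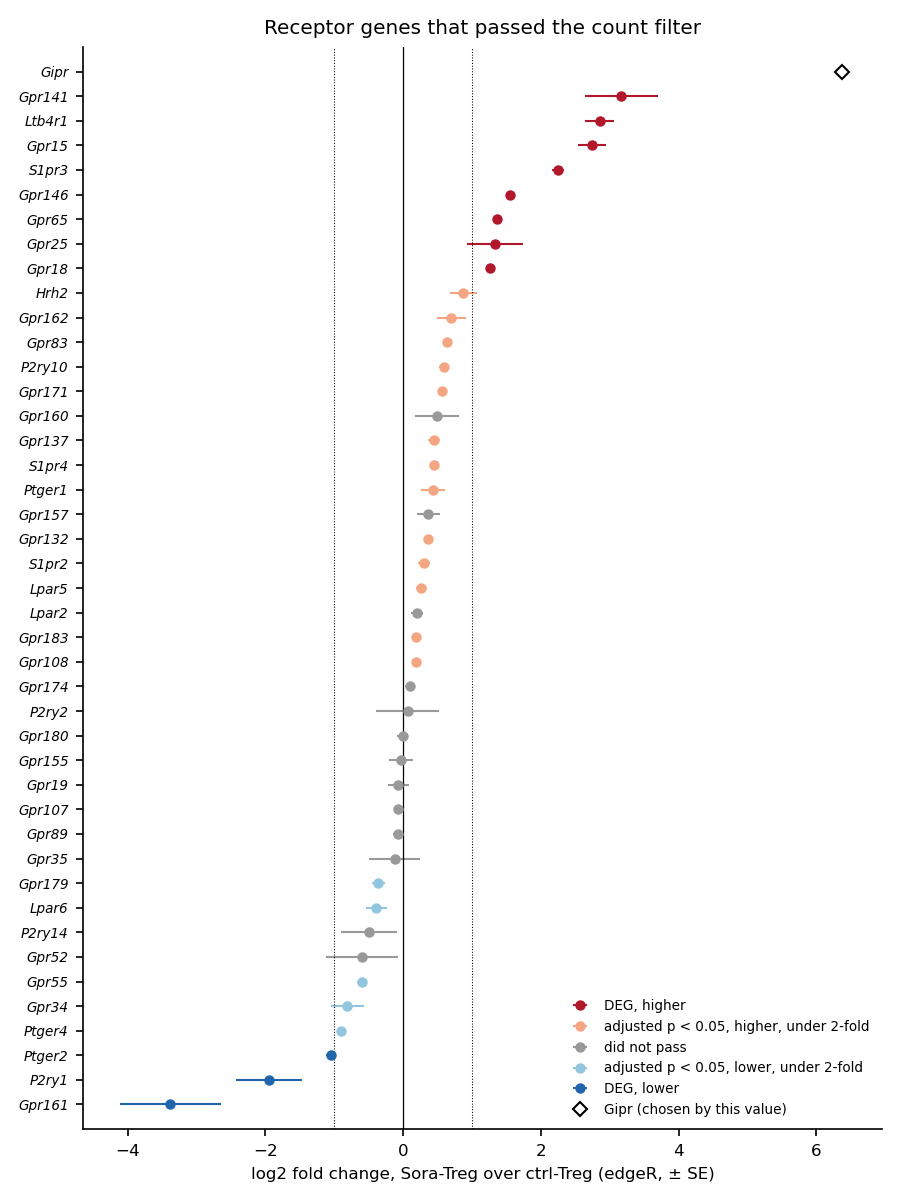
Log2 fold change of Sora-Treg over ctrl-Treg (x axis) for 43 of the 45 receptor genes that passed the count filter (rows), each with its SE from edgeR (3 libraries a group). Dotted lines mark 2-fold, filled points are coloured by call, and the open diamond is Gipr at 6.37. The 8 called higher run from Gpr141 at 3.17 to Gpr18 at 1.26, and the 3 called lower are Ptger2, P2ry1 and Gpr161.

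Gipr was low in ctrl-Treg and among the most abundant receptor genes in Sora-Treg. Control cells gave 117, 120 and 120 counts and Sora-Treg cells 8348, 8535 and 10030 counts, or 3.34 ± 0.395 CPM and 275 ± 7.02 CPM (mean ± SD, n = 3). The groups lay far apart, with a log2 fold change of 6.37 ± 0.06 (SE), which is 82.8-fold. Gipr made up 0.290% to 0.368% of the receptor counts in ctrl-Treg and 16.8% to 17.4% in Sora-Treg. Per length of the gene it stood at 0.737 ± 0.0857 FPKM (fragments per kilobase, scaled to the library total) in ctrl-Treg and 56.0 ± 1.46 in Sora-Treg, where only Gpr132 stood higher among the 81 genes. Gipr lies on chromosome 7 from 19156063 to 19170248 on the minus strand (RefSeq, build GRCm38.p6), and no other gene of the table overlaps it.

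The genes next to Gipr differed far less between the groups. Within 40000 bases on either side lie Fbxo46, Qpctl, Snrpd2 and Eml2. The microtubule-associated gene Eml2, the nearest on 1 side, was higher in Sora-Treg by 0.53 ± 0.05 (log2 ± SE, adjusted p = 7.13e-10, edgeR), at 40.9 ± 0.243 CPM in ctrl-Treg and 59.3 ± 2.02 in Sora-Treg. The splicing gene Snrpd2, the nearest on the opposite side, did not pass, with a log2 fold change of -0.05 ± 0.04, and neither did Fbxo46 at 0.05 ± 0.06. Qpctl, which encodes a glutaminyl cyclase, was lower at -0.60 ± 0.12 (adjusted p = 1.77e-04, edgeR). The hormone gene Gip is not among the deposited gene symbols, so it has no values here. Dpp4, which encodes the peptidase that inactivates GIP, stood at 61.2, 60.9 and 64.3 CPM in ctrl-Treg and 66.3, 69.6 and 67.1 in Sora-Treg. Its log2 fold change was 0.12 ± 0.04 (adjusted p = 0.0151, edgeR), and the call was lost in 8 of 16 alternatives, among them leaving out ctrl-Treg 1 (0.12), ctrl-Treg 2 (0.11) or both (0.07, adjusted p = 0.401).

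Among the other receptors that act through Gs, those for prostaglandin E2 fell. Ptger4 and Ptger2 encode the EP4 and EP2 receptors, through which prostaglandin E2 raises cyclic AMP. Ptger4 stood at 117, 120.2 and 112 CPM in ctrl-Treg and at 62.5, 60.9 and 63.3 CPM in Sora-Treg. Ptger2 stood at 34.3, 37.0 and 37.6 CPM in ctrl-Treg and at 16.8, 17.3 and 18.2 CPM in Sora-Treg. For both genes every Sora-Treg library was below every ctrl-Treg library. Ptger2 was called lower, with a log2 fold change of -1.05 ± 0.06 (SE, adjusted p = 2.40e-12, edgeR), and Ptger4 fell short of 2-fold at -0.90 ± 0.04 (adjusted p = 3.73e-15, edgeR). Ptger2 lay close to the 2-fold limit, and limma on log2(FPKM + 1) put it at -0.997, just short of it.

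The remaining prostaglandin E2 receptor genes were low. Ptger1, which encodes EP1, stood at 3.22 ± 0.664 CPM in ctrl-Treg and 4.32 ± 0.241 in Sora-Treg, with a log2 fold change of 0.43 ± 0.17 (adjusted p = 0.0377, edgeR). Its call was lost in 11 of 16 alternatives, including 5 of the 6 that left out 1 library, with 0.28 without ctrl-Treg 2 and 0.17 without both ctrl-Treg 1 and 2 (adjusted p = 0.593, edgeR). Ptger3 did not pass the count filter.

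The promoter sequences of both genes that fell are shown because these genes moved together. Each run is the 250 bases before the transcription start in RefSeq (GRCm38.p6), in lower case, 5′ to 3′ on the strand of the gene. Ptger2 is at chr14:44987861-44988110 on the plus strand and Ptger4 at chr15:5244188-5244437 on the minus strand.
Ptger2: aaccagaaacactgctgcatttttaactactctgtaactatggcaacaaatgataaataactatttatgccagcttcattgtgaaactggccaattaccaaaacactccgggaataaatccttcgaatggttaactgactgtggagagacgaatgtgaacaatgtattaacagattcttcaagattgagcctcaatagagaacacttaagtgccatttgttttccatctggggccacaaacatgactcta
Ptger4: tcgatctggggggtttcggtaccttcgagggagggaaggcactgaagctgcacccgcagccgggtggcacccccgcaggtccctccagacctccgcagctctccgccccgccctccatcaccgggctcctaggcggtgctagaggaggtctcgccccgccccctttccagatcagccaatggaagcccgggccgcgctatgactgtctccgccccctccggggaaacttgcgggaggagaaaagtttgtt

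Gpr65 moved in the opposite direction to the prostaglandin receptors. Gpr65 encodes a receptor that senses extracellular protons and acts through Gs. It stood at 37.8, 34.7 and 34.6 CPM in ctrl-Treg and at 88.4, 97.6 and 90.9 CPM in Sora-Treg, with no overlap. The log2 fold change was 1.37 ± 0.05 (SE, adjusted p = 1.01e-16, edgeR). Gpr174, a lysophosphatidylserine receptor of lymphocytes, did not pass at 0.10 ± 0.08 (adjusted p = 0.288, edgeR), and its sign turned in 5 alternatives. Hrh2, a histamine receptor gene, was higher at 0.87 ± 0.20 (adjusted p = 5.58e-04, edgeR) but low, at 2.18 ± 0.0868 and 4.01 ± 0.942 CPM.

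Summed per length, the genes of the Gs list (12 measured) reached 73.0, 73.6 and 71.2 FPKM in ctrl-Treg and 126, 129 and 129 FPKM in Sora-Treg. Without Gipr the sum of the other 11 was 71.9 ± 1.30 FPKM in ctrl-Treg and 72.1 ± 2.47 FPKM in Sora-Treg (mean ± SD, n = 3), a difference within the spread of the libraries on this scale. With FPKM rescaled by the TMM factors, the same sum was 69.3, 70.2 and 67.7 in ctrl-Treg and 72.7, 78.0 and 74.3 in Sora-Treg, and the groups no longer overlapped. The make-up of the sum differed. Ptger4 took 50.1% ± 0.803 of it in ctrl-Treg and 14.03% ± 0.392 in Sora-Treg. Ptger2 took 12.1% ± 0.676 and then 3.05% ± 0.101. Gpr65 took 23.8% ± 1.22 in ctrl-Treg and 32.2% ± 1.31 in Sora-Treg. Gpr174 took 7.69% ± 0.622 and then 4.31% ± 0.501. Gipr took 1.02% ± 0.133 of the sum in ctrl-Treg and 43.7% ± 1.39 in Sora-Treg. Shares within a library do not depend on that scaling.

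**Figure D2:**
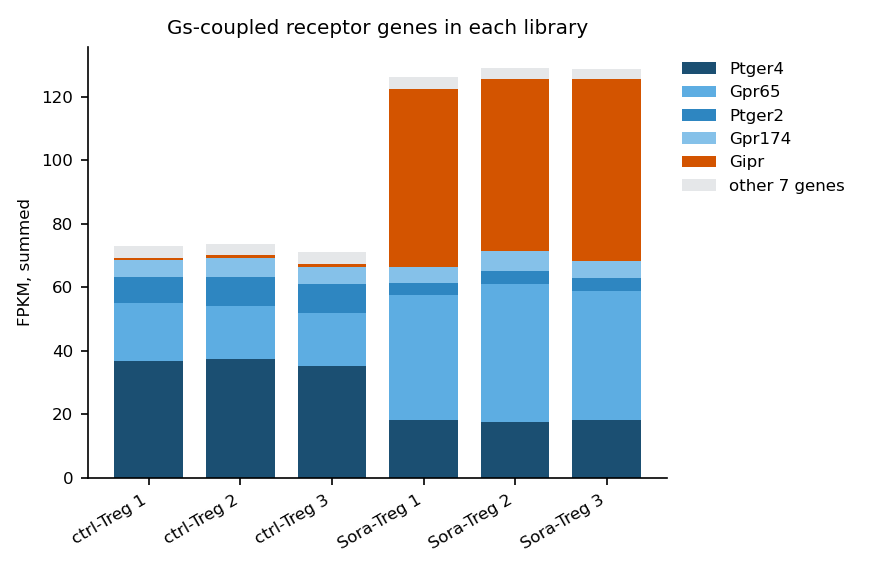
Summed FPKM (y axis) of the 12 genes for receptors acting through Gs, stacked by gene, in each of the 6 libraries (x axis). The total is 71.2 to 73.6 in ctrl-Treg and 126 to 129 in Sora-Treg. Gipr is nearly absent from the ctrl-Treg bars and is the largest block of the Sora-Treg bars, while the Ptger4 block is smaller there.

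The other couplings are given by their sums and counts. The 14 measured genes of the Gi list summed to 66.2 ± 0.957 FPKM in ctrl-Treg and 98.6 ± 2.93 in Sora-Treg, and the 16 of the Gq, G12 and G13 list to 95.4 ± 2.24 and 119 ± 1.04 (mean ± SD, n = 3). At any fold, 29.7% of all tested genes were higher and 29.9% lower. Of 7 tested Gi genes 4 were higher and 1 was lower, and of 11 tested Gq, G12 and G13 genes 6 were higher and 3 were lower. Of 7 tested Gs genes without Gipr, 2 were higher and 2 were lower.

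Lysophospholipid receptors guide lymphocytes along gradients of S1P, lysophosphatidic acid and lysophosphatidylserine. Of their 14 genes 10 were tested, and 5 were higher and 3 lower at any fold (29.7% and 29.9% of all tested genes), with 1 DEG (11.3%). That DEG was S1pr3, an S1P receptor better known from vascular and heart tissue. S1pr3 stood at 6.96, 8.49 and 6.45 CPM in ctrl-Treg and at 34.9, 34.4 and 35.3 CPM in Sora-Treg. No values overlapped, and the log2 fold change was 2.25 ± 0.09 (SE, adjusted p = 3.07e-16, edgeR). S1pr4, an S1P receptor gene of lymphocytes, was the most abundant per length of S1pr2 to S1pr5. S1pr1 is not part of the set described here. S1pr4 stood at 38.3, 39.9 and 39.4 CPM in ctrl-Treg and 56.0, 51.8 and 52.7 in Sora-Treg. Its log2 fold change was 0.45 ± 0.05 (adjusted p = 3.34e-08, edgeR). S1pr2, which restrains migration towards S1P, was higher at 0.30 ± 0.08 (adjusted p = 0.0035, edgeR), and that call was lost in 4 of 16 alternatives, library totals alone among them. S1pr5 did not pass the filter.

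P2ry10, a lysophosphatidylserine receptor, was the highest of the class per length at 20.7 ± 0.780 and 28.8 ± 3.74 FPKM. It stood at 55.8, 60.0 and 56.2 CPM in ctrl-Treg and 78.7, 99.4 and 81.0 in Sora-Treg, where the second library was the highest. The log2 fold change was 0.59 ± 0.06 (adjusted p = 2.68e-08, edgeR). Of the lysophosphatidic acid receptors, Lpar2 did not pass at 0.20 ± 0.09, but passed as higher in 4 of 16 alternatives, with the replicate block (0.20) and without ctrl-Treg 1 (0.27), Sora-Treg 2 (0.23) or Sora-Treg 3 (0.24). Lpar5 was higher at 0.26 ± 0.08 (adjusted p = 0.00799, edgeR) and lost its call in 7 of 16 alternatives, among them leaving out ctrl-Treg 2 (0.22), Sora-Treg 1 (0.20) or both ctrl-Treg 1 and 2 (0.20, adjusted p = 0.173). Lpar6 was lower at -0.39 ± 0.15 (adjusted p = 0.0312, edgeR), and lost its call in 6 of 16, without ctrl-Treg 1 (-0.40) or 2 (-0.34) or without Sora-Treg 1 (-0.33) or 2 (-0.39) among them. Without both ctrl-Treg 1 and 2 it was -0.31 (adjusted p = 0.298, edgeR). Lpar6 overlaps Rb1 on the opposite strand. Gpr55, for which lysophosphatidylinositol is a ligand, was lower, at 20.8 ± 0.118 and 13.7 ± 1.06 CPM, with -0.60 ± 0.08 on the log2 scale (adjusted p = 6.14e-07, edgeR).

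Gpr34, a lysophosphatidylserine receptor of microglia and other myeloid cells, followed the myeloid markers only in part. It stood at 4.60, 5.11 and 3.44 CPM in ctrl-Treg and 1.71, 3.86 and 1.97 in Sora-Treg. ctrl-Treg 3 was above Sora-Treg 1 and 3, while its myeloid marker sum was close to theirs (24.9 against 22.3 and 20.8 CPM). The groups overlapped, since the second Sora-Treg library was above the third ctrl-Treg library, and that Sora-Treg library also held the most myeloid marker RNA of its group. The log2 fold change was -0.81 ± 0.23 (adjusted p = 0.00507, edgeR). It was -1.25 without Sora-Treg 2, and without both ctrl-Treg 1 and 2 it was -0.45 with the call lost (adjusted p = 0.322, edgeR). The part of myeloid cells in this difference was not tested.

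The promoter of S1pr3 is shown as that of the lysophospholipid receptor gene with the largest difference, again as the 250 bases before the start in RefSeq (GRCm38.p6), at chr13:51408368-51408617 on the plus strand.
S1pr3: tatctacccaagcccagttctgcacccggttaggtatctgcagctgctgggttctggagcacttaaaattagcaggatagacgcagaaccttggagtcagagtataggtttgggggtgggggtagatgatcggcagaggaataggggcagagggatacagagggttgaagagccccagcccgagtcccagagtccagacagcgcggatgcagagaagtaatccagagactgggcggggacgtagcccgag

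The proton-sensing receptors include the most abundant receptor gene of the set. Gpr132, which responds to protons and oxidized lipids, had the highest mean FPKM of all 81 genes, at 57.7 ± 1.25 in ctrl-Treg and 68.3 ± 2.07 in Sora-Treg. It stood at 153, 155 and 149 CPM in ctrl-Treg and 199, 189 and 198 in Sora-Treg, a log2 fold change of 0.36 ± 0.03 (SE, adjusted p = 2.24e-09, edgeR). The related gene Gpr4 did not pass the filter.

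Receptors for lipid mediators and metabolites were led by Gpr18 and Gpr183. Gpr18, a lymphocyte receptor for which lipid ligands have been proposed, stood at 25.8, 26.6 and 26.5 CPM in ctrl-Treg and 64.4, 62.3 and 61.7 in Sora-Treg. The libraries of each group lay close together, and the log2 fold change was 1.26 ± 0.05 (SE, adjusted p = 3.90e-16, edgeR). Gpr183, which lies near Gpr18 on chromosome 14 and encodes the EBI2 receptor for oxysterols, stood at 80.9, 81.2 and 85.6 CPM in ctrl-Treg and 95.5, 90.8 and 95.3 in Sora-Treg. The log2 fold change was 0.19 ± 0.04 (adjusted p = 3.02e-04, edgeR), and the call was lost in 5 of 16 alternatives, with library totals alone giving 0.07 and leaving out both ctrl-Treg 1 and 2 giving 0.13 (adjusted p = 0.0846). Both genes overlap Ubac2 on the opposite strand, which stood at 53.3 and 55.7 CPM and did not pass at 0.06 ± 0.04. Gpr35 stood at 0.584 to 0.962 CPM over all 6 libraries and did not pass.

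Ltb4r1, which encodes the BLT1 receptor through which leukotriene B4 attracts leukocytes, stood at 0.787, 1.37 and 0.658 CPM in ctrl-Treg and 7.48, 6.31 and 6.83 in Sora-Treg. Its log2 fold change was 2.86 ± 0.21 (SE, adjusted p = 6.89e-11, edgeR), and no values overlapped. Ltb4r2, the low-affinity receptor for the same ligand, did not pass the filter.

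The group without an assigned class held 4 called higher and 1 called lower of 13 tested, where 6.30% and 4.97% of all tested genes were called. Gpr141 and Gpr161, which passed the filter through 1 group only, are among these 5. Gpr146, known for its part in cholesterol metabolism in the liver, was the most abundant per length of those called, at 52.7, 48.1 and 51.0 CPM in ctrl-Treg and 151, 145 and 151 in Sora-Treg. Its log2 fold change was 1.56 ± 0.04 (SE, adjusted p = 3.98e-19, edgeR). Gpr15, a homing receptor that brings T cells and Treg cells to the colon, stood at 0.635, 1.32 and 1.10 CPM in ctrl-Treg and 7.02, 6.74 and 6.49 in Sora-Treg. This was a log2 fold change of 2.74 ± 0.21 (SE, adjusted p = 8.48e-11, edgeR), with the Sora-Treg libraries closer to each other than the ctrl-Treg libraries were.

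Gpr25 and Gpr141 were called at low counts. Gpr25, a receptor of T cells with few established roles, had 21, 12 and 15 counts in ctrl-Treg and 31, 21 and 60 in Sora-Treg, where the first ctrl-Treg and second Sora-Treg libraries held the same count. Its log2 fold change was 1.34 ± 0.41 (SE, adjusted p = 0.00697, edgeR), and the call was lost in 3 of 13 alternatives. It was 0.91 without Sora-Treg 3 (adjusted p = 0.101, edgeR), 1.26 without both ctrl-Treg 1 and 2 (adjusted p = 0.117, edgeR) and 0.31 with limma on log2(FPKM + 1) and no filter (adjusted p = 0.104). Gpr141, a receptor with no established ligand, had 4, 4 and 1 counts in ctrl-Treg and 21, 27 and 28 in Sora-Treg. Having passed the filter only through Sora-Treg, it is given as a description, with a log2 fold change of 3.17 ± 0.53, or 4.47 without both ctrl-Treg 1 and 2.

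Other genes of this group differed by less than 2-fold. Gpr171, the highest of the group per length and a receptor reported to bind the neuropeptide BigLEN, stood at 32.3, 32.0 and 33.7 CPM in ctrl-Treg and 48.5, 49.0 and 46.7 in Sora-Treg, with a log2 fold change of 0.56 ± 0.05 (adjusted p = 1.55e-09, edgeR). Gpr83, a receptor gene expressed by Treg cells, stood at 41.1, 41.5 and 41.5 CPM and then 64.5, 64.2 and 65.1 CPM, a log2 fold change of 0.64 ± 0.04 (adjusted p = 9.99e-12, edgeR). Libraries of a group differed little in either gene. Gpr108, which encodes a Golgi membrane protein and led the 6 organelle membrane genes, stood at 50.2 ± 0.684 and 56.9 ± 1.04 CPM with a log2 fold change of 0.18 ± 0.04 (adjusted p = 9.91e-04, edgeR). That call was lost in 4 of 16 alternatives. Of those 6 genes, 2 were higher at any fold (29.7% of all tested genes) and 4 did not pass.

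The Gpr146 promoter is shown for the third start that RefSeq gives (GRCm38.p6), at chr5:139389654-139389903 on the plus strand, because it holds the only match in the promoters printed here. Capitals mark the forkhead motif GTAAACA, the letters bound by FOXO factors. The promoters of the first and second starts of Gpr146 held no match to any of the motifs counted below. Foxo1 is one of the factors that the study examined, and its binding here was not tested.
Gpr146: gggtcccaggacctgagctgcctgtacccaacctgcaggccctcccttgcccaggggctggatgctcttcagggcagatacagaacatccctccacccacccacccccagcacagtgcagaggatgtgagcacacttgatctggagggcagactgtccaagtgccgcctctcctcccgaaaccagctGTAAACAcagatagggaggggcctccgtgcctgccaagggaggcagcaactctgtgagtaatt

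Motif matches among the receptor promoters were near their share among all promoters. For 63 of the 81 genes RefSeq tables gave 88 promoters of 250 bases, and none was given for Gipr. On either strand GTAAACA was in 3 of the 88 (3.41%), those of Gpr146, Gpr180 and P2ry14, and in 3.17% of all 32851 promoters. Of these genes Gpr146 was called higher, while Gpr180 and P2ry14 did not pass the test. The cyclic AMP response element TGACGTCA was in 1 (1.14%), that of S1pr2, and in 1.55% of all promoters. The AP-1 motif TGACTCA was in 5 (5.68%), those of Gpr35, Gpr39, Hrh1, Lpar2 and P2ry14, and in 4.46% of all promoters. None of the 3 motifs contains another, and a match is a description of the sequence only.

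Called lower beside Ptger2 were P2ry1 and Gpr161, both at few counts. P2ry1, an ADP receptor known from platelets, whose markers are given above, had 32, 40 and 15 counts in ctrl-Treg and 7, 4 and 9 in Sora-Treg. The difference was -1.95 ± 0.48 on the log2 scale (SE). Gpr161, a receptor of primary cilia that restrains Hedgehog signalling, had 20, 33 and 9 counts in ctrl-Treg and 4, 1 and 0 in Sora-Treg, with a log2 fold change of -3.38 ± 0.74 (SE). It was -4.96 without Sora-Treg 1 and -2.77 without Sora-Treg 3. Both genes passed the filter only through ctrl-Treg, so these values are a description, and in both genes ctrl-Treg 1 and 2, which held the most myeloid marker RNA, were above ctrl-Treg 3. Without ctrl-Treg 1 and 2, the log2 fold change of P2ry1 was -1.19 and its call was lost (adjusted p = 0.278, edgeR), while Gpr161 fell below the filter without either or both of them. The part of myeloid cells in these differences was not tested. Gpr161 also overlaps Tiprl on the opposite strand, at 57.2 and 55.4 CPM. P2ry14, which binds UDP-glucose and was the highest nucleotide receptor gene per length, had 35, 22 and 19 counts in ctrl-Treg and 22, 12 and 14 in Sora-Treg and did not pass at -0.50 ± 0.41 (adjusted p = 0.306, edgeR).

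**Figure D3:**
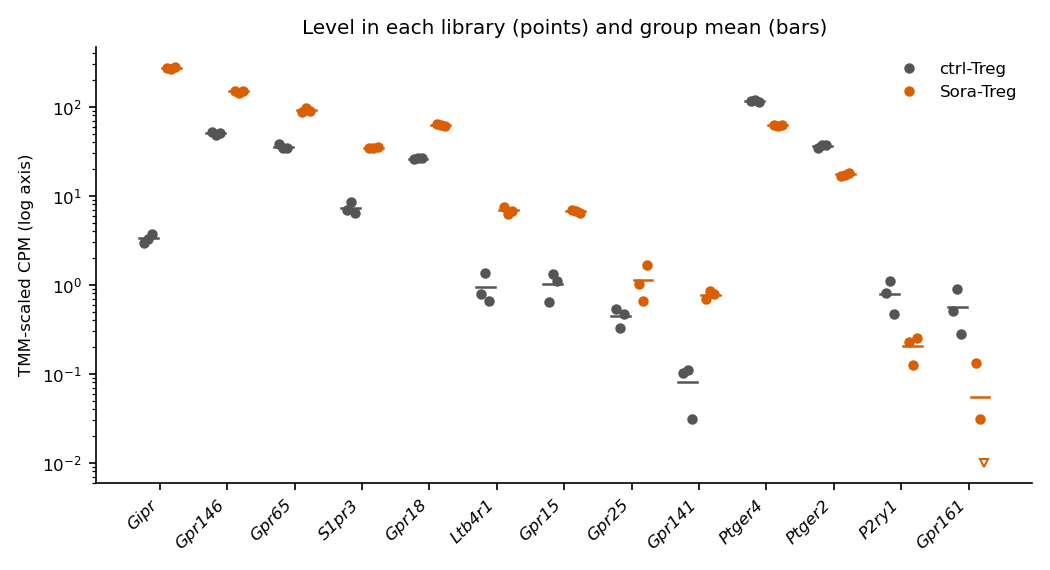
TMM-scaled CPM on a log axis (y axis) in each library (points) with group means (bars) for Gipr, the 11 other called genes and Ptger4 (x axis), 3 libraries a group. The open triangle at the foot stands for a count of 0. The groups are apart for all 13 genes, and the points spread most for the genes near or below 1 CPM.

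**Figure D4:**
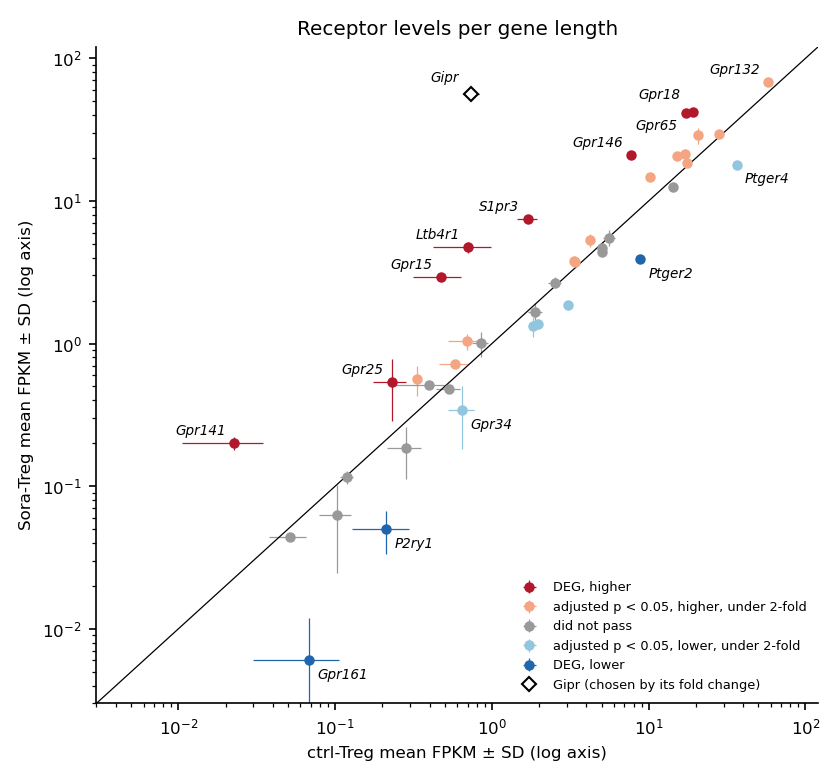
Mean FPKM ± SD (n = 3) of 43 of the 45 tested receptor genes in ctrl-Treg (x axis) and Sora-Treg (y axis), both on log axes, coloured by call, with the line of equal level. Gipr, drawn as an open diamond, moves from 0.737 to 56.0 FPKM, next to Gpr132, Gpr18 and Gpr65, which lie near the top in both groups. FPKM was not rescaled by TMM.

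In order of mean FPKM over all 6 libraries, Gpr132 was followed by Gpr18, Gpr65, Gpr183, Gipr, Ptger4, P2ry10 and S1pr4. Within ctrl-Treg the order was led by Gpr132 at 57.7 ± 1.25, Ptger4 at 36.4 ± 1.19 and Gpr183 at 28.0 ± 0.871 FPKM. Within Sora-Treg it was led by Gpr132 at 68.3 ± 2.07, Gipr at 56.0 ± 1.46, Gpr18 at 42.4 ± 1.04 and Gpr65 at 41.3 ± 2.08 FPKM. Gpr18 and Gpr65 did not differ beyond their spread in Sora-Treg, nor did Gpr183 at 29.4 ± 0.874 and P2ry10 at 28.8 ± 3.74 FPKM.

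The 36 genes below the filter had at most 17 counts in any library, and 23 of them never had more than 5. Among them were Gpr119, Lpar1, Lpar3, Lpar4, Hrh1, Hrh3, Hrh4, Adrb1, P2ry12 and Ptger3. In 6 of the 36 the CPM values of the groups did not overlap, against 10.1% of all genes below the filter. Sora-Treg was below in 4 (4.50% of those genes) and above in 2 (5.61%). Of these, the histamine receptor genes Hrh3 had 10, 12 and 5 counts in ctrl-Treg and 1, 3 and 3 in Sora-Treg, and Hrh1 had 3, 11 and 5 and then 0 in every Sora-Treg library. At this depth, 3 counts are the limit that a count of 0 allows. In all, 53 of the 81 genes had at least 1 count in every library.

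G protein subunits carry the signal of these receptors. Of the 30 genes of the list 21 were tested, and 14 were higher and 4 lower at any fold (29.7% and 29.9% of all tested genes), with a median log2 fold change of 0.19 (-0.0035 over all tested genes). The 2 DEGs of the 21 were Gnal and Gnaz, both alpha subunits and both higher, where 6.30% of all tested genes were DEGs higher. None was a DEG lower (4.97% of all tested genes). Gnal, which encodes the Gs-like subunit Golf, stood at 6.32, 6.43 and 5.64 CPM in ctrl-Treg and 25.1, 24.9 and 26.2 in Sora-Treg, a log2 fold change of 2.05 ± 0.08 (SE, adjusted p = 1.58e-15, edgeR). Gnaz, of the Gi family, stood at 1.93, 1.81 and 2.79 CPM in ctrl-Treg and 8.47, 7.12 and 8.20 in Sora-Treg, with 1.88 ± 0.16 (SE, adjusted p = 1.13e-09, edgeR). Gna13, which couples receptors to RhoA, rose from 421 ± 4.83 to 740.0 ± 24.1 CPM with 0.81 ± 0.03 (adjusted p = 3.34e-17, edgeR). Gnai2, the highest per length, was higher at 0.24 ± 0.03 (adjusted p = 4.21e-08, edgeR). The lower ones were led by Gna15 at -0.40 ± 0.12 (adjusted p = 0.00635, edgeR) and Ric8b, a chaperone for Gs subunits, at -0.34 ± 0.08 (adjusted p = 4.25e-04, edgeR). Without both ctrl-Treg 1 and 2 the call of Gna15 was lost at -0.40 (adjusted p = 0.0822, edgeR). Gna12 was lower at -0.23 ± 0.08 (adjusted p = 0.0143, edgeR), and its call was lost without ctrl-Treg 1 (-0.17) or ctrl-Treg 2 (-0.19) and with both left out, at -0.03.

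Receptor kinases and arrestins end the signal and carry receptors into the cell. Of 14 measured genes of the list, 12 were tested, 4 higher and 4 lower at any fold, close to the 29.7% and 29.9% of all tested genes, with a median log2 fold change of -0.09. Arrb1, which encodes beta-arrestin 1, stood at 232, 232 and 231 CPM in ctrl-Treg and 677, 697 and 699.9 in Sora-Treg, a log2 fold change of 1.58 ± 0.03 (SE, adjusted p = 1.19e-22, edgeR). Arrdc3, an arrestin-domain gene, fell from 20.4 ± 1.44 to 10.1 ± 0.871 CPM with -1.01 ± 0.09 (adjusted p = 8.79e-10, edgeR), and leaving out 1 library put it just under 2-fold in 4 of 6 cases, at -0.97 to -0.98. Ramp3, a partner protein of class B receptors, had 73, 32 and 32 counts in ctrl-Treg and 67, 98 and 81 in Sora-Treg, with 1.001 ± 0.28 (adjusted p = 0.00409, edgeR), and was under 2-fold without ctrl-Treg 2 (0.80), ctrl-Treg 3 (0.87) or Sora-Treg 2 (0.84). Txnip was higher at 0.58 ± 0.04 (adjusted p = 2.40e-12, edgeR). Grk2, the kinase gene with the highest FPKM of the list, was lower at -0.27 ± 0.03 (adjusted p = 2.24e-08, edgeR). Arrdc4 was lower at -0.62 ± 0.21 (adjusted p = 0.0118, edgeR), with the call lost without ctrl-Treg 2 (-0.51) and without both ctrl-Treg 1 and 2 (-0.58, adjusted p = 0.135). Grk3 was lower at -0.90 ± 0.37 (adjusted p = 0.0435, edgeR), and its call was lost whenever 1 library other than Sora-Treg 1 was left out, at -0.97 to -0.73, and without both ctrl-Treg 1 and 2 (-0.73, adjusted p = 0.381).

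Of 33 measured genes for enzymes and carriers that make, release or remove ligands of these receptors, 24 were tested, 7 were higher and 5 lower at any fold (29.7% and 29.9% of all tested genes), and the median log2 fold change was 0.02. Enpp2, which encodes autotaxin, the enzyme that makes lysophosphatidic acid, stood at 2.13, 2.56 and 2.44 CPM in ctrl-Treg and 22.1, 21.8 and 20.1 in Sora-Treg. This was a log2 fold change of 3.17 ± 0.11 (SE, adjusted p = 3.49e-17, edgeR), with no overlap. Entpd1, which encodes CD39, the ectoenzyme that hydrolyses extracellular ATP and ADP, stood at 7.67, 7.06 and 6.51 CPM in ctrl-Treg and 21.9, 19.6 and 21.0 in Sora-Treg, with 1.55 ± 0.09 (adjusted p = 7.23e-13, edgeR). Entpd2, which shares that activity, had 2, 3 and 9 counts in ctrl-Treg and 19, 11 and 8 in Sora-Treg, with overlapping groups and 1.55 ± 0.64 (adjusted p = 0.0406, edgeR). Its call was lost without ctrl-Treg 1 (1.13) or 2 (1.30) or without Sora-Treg 1 (1.08) or 2 (1.64), and it was 2.51 without ctrl-Treg 3 and 0.48 without both ctrl-Treg 1 and 2 (adjusted p = 0.701, edgeR).

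On the lower side were a gene of prostaglandin synthesis and a gene of leukotriene synthesis. Ptgs2, which encodes the inducible cyclooxygenase COX-2, had 105, 92 and 54 counts in ctrl-Treg and 16, 3 and 11 in Sora-Treg, a log2 fold change of -2.89 ± 0.39 (SE). Alox5ap, which helps to make leukotrienes, had 40, 28 and 24 counts in ctrl-Treg and 11, 6 and 4 in Sora-Treg, with -1.95 ± 0.46, and without both ctrl-Treg 1 and 2 its call was lost at -1.77 (adjusted p = 0.0742, edgeR). Both genes passed the filter only through ctrl-Treg, so their values are a description. Both are also expressed by myeloid cells, whose part was not tested. Ptges3, linked to prostaglandin E2 synthesis, was lower at -0.28 ± 0.06 (adjusted p = 1.83e-04, edgeR). Lta4h, which makes leukotriene B4 and was the highest of the list per length, did not pass at -0.05 ± 0.03 (adjusted p = 0.15, edgeR), although library totals alone called it lower at -0.17.

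**Figure D5:**
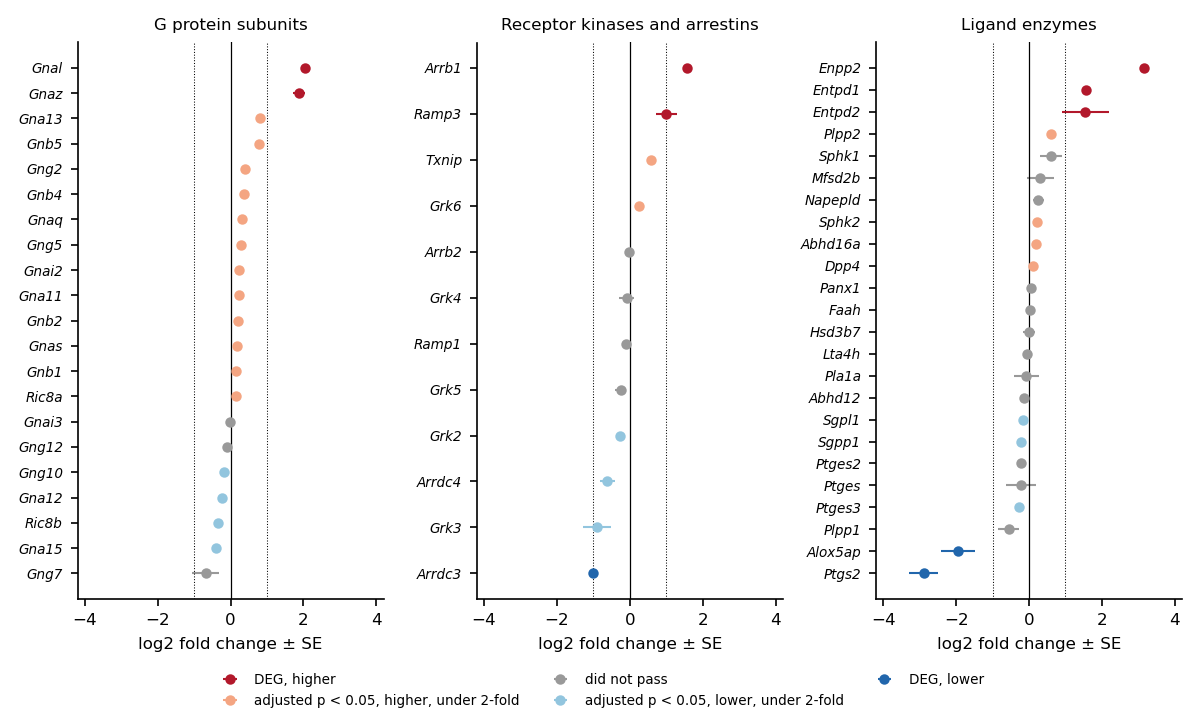
Log2 fold change of Sora-Treg over ctrl-Treg ± SE (x axes, 3 libraries a group) for the tested genes (rows) of the 3 lists: G protein subunits, receptor kinases and arrestins, and ligand enzymes. Dotted lines mark 2-fold and colours give the call. Gnal and Gnaz, Arrb1, and Enpp2 lead the higher side of their lists, and Ptgs2 and Alox5ap lie lowest among the ligand enzymes.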

How the data were processed

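RNA of 3 ctrl-Treg and 3 Sora-Treg libraries was sequenced by the study on a BGISEQ-500 instrument, and the titles gave each library's group and number. The authors deposited raw counts and FPKM for 22939 gene symbols. The submitters' processing notes name fastp, HISAT2, HTSeq, DESeq2, R 3.2.0 and GRCm39, while the methods of the study name Bowtie2, GRCm38 and an estimate of FPKM by an expectation maximization algorithm. Which of these made the tables was not settled, and the strand setting and annotation release are not given in the sources used here. The deposited FPKM equalled the count divided by a gene length and the library total (largest relative difference 1.64e-06), so FPKM is no separate measurement. Reads of genes that overlap on opposite strands may have been mixed, and 34 of the 81 receptor genes overlap a gene of the table, 4 of them called (Gpr146, Gpr161, Gpr18 and S1pr3). Library totals were 30727686 to 37717324 counts, the biological coefficient of variation was 4.29%, and floors cover counting error only. No 2 libraries were copies (chi-square of 3.36 to 5.91 for each degree of freedom).

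Counts were tested with edgeR 4.0.16 (R 4.3.3): filterByExpr, TMM scaling, glmQLFit and glmQLFTest on all 6 libraries with no covariate, and Benjamini-Hochberg adjustment over the 13463 genes tested. A DEG had an adjusted p below 0.05 and a log2 fold change beyond 1. The SE is the log2 fold change divided by the square root of the F statistic, and levels are TMM-scaled CPM as mean ± SD (n = 3). On simulated counts, edgeR recovered 97.5% of 198 changed genes among 13300 tested, and 3.98% of its calls were false. All simulated differences were larger than 2-fold, and far fewer genes changed than passed in the data. These rates therefore do not cover the smaller differences reported here. Alternatives were RLE scaling, library totals alone, other count filters, DESeq2 1.42.0, a replicate block, limma 3.58.1 on log2(FPKM + 1) and log2(FPKM + 0.1), a test against a 2-fold null, and each library left out. Leaving out ctrl-Treg 1 and 2 together was chosen after seeing the data. An exact permutation test of 3 against 3 cannot go below 0.1, so none was used.

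Named with values were Gipr, every called receptor gene (at most 15 each way), the 8 with the highest mean FPKM and the highest of each ligand class. From each of 3 lists the 3 highest and 3 lowest that passed and the highest by FPKM were named, with Dpp4. Other genes named were chosen after their values were seen. The receptor genes, lists and markers were chosen with earlier results of these data known. Ligand classes and couplings were assigned from general knowledge. Gene positions and promoters came from RefSeq tables on GRCm38.p6, matched by symbol for all 81 genes, and a position on GRCm39 would differ. Protein sequences were not used here, and some genes counted in the totals are not reported here by name.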

Additional observations from a re-analysis of the deposited data

How the results depend on the processing

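For single genes, a call kept or lost refers to an adjusted p below 0.05 at any fold. Of the 45 tested receptor genes, 20 kept their direction and their side of that limit in every alternative in which they were tested. Another 13 lost the call in at least 1, 6 gained it and 6 turned sign. The 2-fold limit was not part of this count. Ptger2 is among the 20, though limma on log2(FPKM + 1) put it at -0.997. By the rule for DEGs, which includes the 2-fold limit, the number of receptor genes called higher, 9 with Gipr, was 7 to 10 in all alternatives. The number called lower, 3, was 1 with a CPM of at least 1 in 3 libraries, 0 with limma on log2(FPKM + 1), with or without a filter, 1 against a 2-fold null and 1 without both ctrl-Treg 1 and 2 (chosen after seeing the data). The first of these filters removes P2ry1 and Gpr161, and a pseudocount of 1 understates folds of low genes. In the limma fits 14 genes were higher at any fold with log2(FPKM + 1), 14 with log2(FPKM + 0.1) and 15 with no filter, against 23, where FPKM carries no TMM scaling. Over all genes tested, these fits gave 275, 454 and 274 DEGs higher and 189, 451 and 185 lower. The main fit gave 848 and 669. The share of all genes at any fold was not counted for the limma fits. The 8 lower at any fold were 3 without both ctrl-Treg 1 and 2, where 1 library stands against 3 and is assumed to vary like the rest. With 1 library left out at a time, DEGs numbered 8 to 9 higher and 2 to 4 lower, receptors at any fold 21 to 24 higher and 6 to 8 lower, and 17 to 18, 6 to 8 and 9 to 11 genes of the 3 lists passed, against 18, 8 and 12. These 3 lists stayed within 1.5 times in every alternative.

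All 6 genes that turned sign had not passed the test. Gpr174 (0.10) was at -0.0152 with library totals alone, -0.016 with limma on log2(FPKM + 1), filtered or not, -0.019 on log2(FPKM + 0.1), and -0.00246 to 0.18 with 1 library left out. P2ry2 (0.06) was at -0.0508 with library totals alone, -0.00492 with limma and no filter, and -0.012 to 0.136 with 1 library left out. With 1 library left out, Gpr180 (-0.01) was at -0.0746 to 0.0688, Gpr155 (-0.03) at -0.155 to 0.106, Gpr19 (-0.07) at -0.216 to 0.0238 and Gpr35 (-0.12) at -0.262 to 0.128. Gpr35 was at 0.0404 without both ctrl-Treg 1 and 2. The cause was not tested.

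Whether the replicate numbers of the titles pair the libraries is not given. The correlations of the deviations of same-numbered libraries were -0.0438, 0.0591 and 0.0299, and not every library correlated best with its own number. With 3 libraries a group such correlations cannot decide whether libraries were paired. With the replicate block, 9 receptor genes were DEGs higher and 3 lower, 24 were higher and 8 lower at any fold, and the lists had 18, 7 and 12 genes that passed. Depth limits the 36 genes under the count filter, which the main fit did not test. A looser filter let all 81 receptor genes into the edgeR test. It gave 10 DEGs higher and 4 lower, against 9 and 3 in the main fit. At any fold it gave 24 higher and 9 lower, against 23 and 8. DESeq2 on all 81 gave 9 DEGs higher and 4 lower. Which genes gave the added calls is not given here.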
